A study of Mus musculus with 18 samples.

Results

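The 10 genes described here handle lipid in macrophages: Mgll, Fabp4, Fabp5, Plin2, Lpl, Cd36, Abca1, Abcg1, Apoe and Nr1h3. They were picked by symbol from the 25926 genes of an RNA-seq table, each matched 1 row, and all 10 passed the filter on low values, which asked for an average of 1 FPKM or more in the samples of a comparison. The samples were bone marrow-derived macrophages (BMDMs). Marrow of C57BL/6J mice had been cultured with 50 ng/mL M-CSF, a growth factor that turns marrow cells into macrophages, until day 7. The BMDMs then shared medium with renal tubular epithelial cells (TECs) across a Transwell membrane (pore size 0.4 μm), with the BMDMs in the upper chamber. The NC group of 6 samples received PBS, and its TECs saw no crystals. The COM group of 6 also received PBS, but its TECs had been given calcium oxalate monohydrate (COM) crystals, the main mineral of kidney stones, at 100 μg/mL for 24 h. The COM+Met group of 6 received Met at 5 mM over TECs given the same crystals, and the labels do not spell out Met. A group with Met and no crystals was not analysed here, so Met is seen only on top of COM.

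Macrophages take up fatty acids and modified lipoproteins through scavenger receptors such as Cd36, and release fatty acids from lipoprotein triglyceride with the secreted enzyme Lpl. Inside the cell, fatty acids are carried by small binding proteins such as Fabp4 and Fabp5, and surplus lipid is kept in droplets coated by Plin2. Mgll splits monoacylglycerols, the endocannabinoid 2-arachidonoylglycerol among them, into glycerol and fatty acid. Surplus cholesterol leaves through the transporters Abca1, which loads lipid-poor apolipoproteins, and Abcg1, which loads HDL, and on the secreted apolipoprotein Apoe. Nr1h3 encodes LXRα, a nuclear receptor for oxysterols that is known to switch on Abca1, Abcg1 and Apoe, while PPARγ is known to switch on Fabp4, Cd36, Plin2 and Lpl.

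Expression was deposited as FPKM, in which fragments are scaled to gene length and sample total, and read depth is unknown. Differences are given between group means of log2(FPKM + 1), with the standard error (SE) of a limma fit, and a gene passed at a Benjamini-Hochberg adjusted p under 0.05 over all genes tested. The labels do not say whether the 6 samples of a group were separate cultures or mice. Each p therefore sets a difference of means only against the spread of these samples within groups, and that spread may be technical. Within groups, NC-5 and NC-6 stood apart from the other NC samples (r between 0.938 and 0.962 on the log2 scale across 10751 genes), and COM-1 to COM-3 stood apart from COM-4 to COM-6 (r between 0.888 and 0.951), whereas the COM+Met samples correlated at 0.989 or more. Results that rest on these samples are given with and without them. All 12 macrophage markers averaged 1 FPKM or more in every group, but their levels were not even across groups. Mrc1 ran from 53.8 to 122 FPKM in NC, 1.17 to 5.18 in COM and 2.38 to 2.95 in COM+Met. Adgre1 went the other way, with 98.6 to 120, 518 to 669 and 493 to 634 FPKM. Of the 18 tubular epithelial markers, Cdh1 made up most of a summed level of 11 to 18.6 FPKM in NC, which was at most 1.5 in COM and 0.35 in COM+Met. Umod, Aqp2, Krt18, Havcr1 and Slc22a6 were listed at 0 in all 18 samples. Neutrophil markers summed to 541 to 1037 FPKM in NC, 194 to 622 in COM and 91 to 149 in COM+Met, and fibroblast and stromal markers to 15.6 to 67.1, 4.74 to 41.9 and 2.4 to 7.87. S100a8, S100a9 and Mmp8 made up most of the neutrophil sum in NC, where Ly6g, Mpo and Retnlg reached at most 0.257, 0.263 and 0.307 FPKM. Not all neutrophil markers fell: Mmp9 ran from 0.498 to 8.64 FPKM in NC and 5.8 to 61.1 in COM. The NC and COM ranges of Camp and Csf3r overlapped. In bulk RNA, fewer cells of a type and less RNA per cell cannot be told apart.

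The genes were chosen with results of these data known: Mgll and Fabp5 were first seen among the largest rises of COM+Met over COM, and the values that brought in the other genes are not on record. COM+Met and COM are therefore set side by side for these genes without a p. The p-values printed for COM against NC and COM+Met against NC share samples with that contrast and are not independent evidence.

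Most of the set was lower in COM than in NC, and Abca1 was higher. Mgll, Fabp4, Fabp5, Plin2, Lpl and Cd36 fell against NC, Abca1 rose, and Abcg1, Apoe and Nr1h3 did not pass. Of all genes tested, 12.7% were higher in COM and 40.6% were lower at that threshold, and the groups did not overlap for 38.2%, against 7 of these 10. The median of the 10 genes was -0.98 on the log2 scale, beside -0.27 over all 10900 genes tested, and relative to that shift Mgll differed by -2.31 and Lpl by -0.41. With median-of-ratios scaling, which takes that shift to -0.01, 1 gene rose and 5 fell, and Lpl no longer passed.

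In COM+Met the set split into genes that were near NC, genes that stayed where COM had put them, and genes that lay farther from NC than in COM. Mgll and Fabp5 were higher than in COM, with no overlap, and lay close to the NC values. Plin2, Abca1 and, less evenly, Fabp4 stayed near COM. Lpl and Cd36 were lower than in COM, again with no overlap. Apoe had its highest values in this group. Over all genes, 5.77% passed as higher and 7.58% as lower than in COM, and the groups did not overlap for 11.2%. Of these 10, 3 were past the same threshold upwards (Mgll, Fabp5 and Apoe), 3 downwards (Lpl, Cd36 and Abcg1), and 4 had groups that did not overlap. Because this contrast helped to choose them, nothing is read from those counts.

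**Figure D1:**
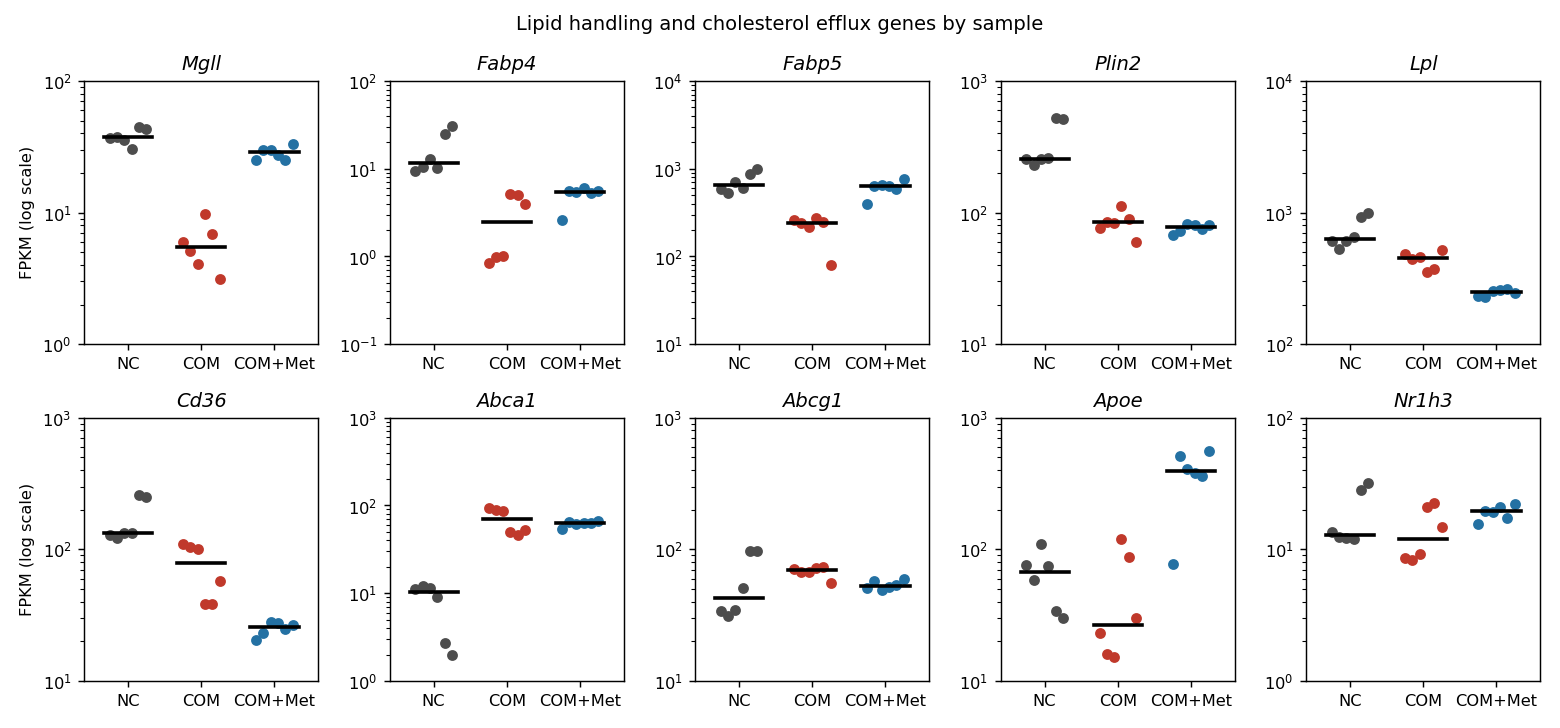
FPKM (log scale) of the 10 genes in each of the 6 NC, COM and COM+Met samples, drawn from replicate 1 to 6 within each group, where each point is a sample and the line is the group's median. Mgll and Fabp5 dip in COM and lie near NC in COM+Met, Cd36 steps down from a median of 132 to 79.2 and 25.6 FPKM, and 5 of the 6 COM+Met samples have more Apoe than any other sample.

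Mgll was low in COM and high in NC and COM+Met. It encodes monoacylglycerol lipase and lies at chr6:88724412-88828360 (plus strand, GRCm38), and the gene has the identifier ENSMUSG00000033174. Its FPKM ran from 30.5 to 44.6 in NC (median 37.3), from 3.11 to 9.8 in COM (median 5.51) and from 25.1 to 33.3 in COM+Met (median 28.6). The COM samples lay below every other sample, and the COM+Met range reached into the lower part of the NC range. The NC mean of 38.1 ± 5.2 FPKM (SD, n = 6) was 6.54-fold that of COM (5.82 ± 2.37), a difference of -2.58 on the log2 scale (SE 0.20, limma adjusted p = 7.07e-07). COM+Met (28.5 ± 3.14) was 4.89-fold COM, a difference of 2.17 (SE 0.19). It ran from 2.05 without COM-1 to COM-3 to 2.29 without COM-4 to COM-6. Against NC, COM+Met was lower by -0.40 (SE 0.09, limma adjusted p = 0.00178). Relative to the median of all genes that difference was -0.14, and with median-of-ratios scaling it was -0.12 and did not pass (limma adjusted p = 0.281).

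Lpl followed another course. Lipoprotein lipase (chr8:68880491-68907448, plus strand) had the highest mean FPKM, a level per length, of the 10 in NC and COM. It measured 529 to 994 FPKM in NC (median 632), 353 to 519 in COM (median 455) and 228 to 262 in COM+Met (median 249). The 3 groups did not overlap, and they stepped down in that order. The fall in COM was modest, -0.68 on the log2 scale (SE 0.18, limma adjusted p = 0.00593), or -0.41 relative to all genes. It did not pass with median-of-ratios scaling (-0.39, limma adjusted p = 0.094). COM+Met lay below COM by -0.82 (SE 0.11) and below NC by -1.50 (SE 0.14, limma adjusted p = 5.98e-07). Mgll and Lpl, both lipases, were thus on opposite sides of COM when Met was present. That opposition was in every sample, since all COM+Met samples had more Mgll and less Lpl than all COM samples.

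The fatty acid-binding proteins Fabp4 and Fabp5 lie on chromosome 3, 187480 bp apart. Fabp5 is at chr3:10012548-10016607 (plus strand) and Fabp4 at chr3:10204088-10208576 (minus strand). The pair differed in level and in course. Fabp5, the epidermal type, measured 533 to 993 FPKM in NC (median 656), 80.1 to 276 in COM (median 243) and 397 to 761 in COM+Met (median 639). All COM samples lay below all others, while COM+Met and NC overlapped. Fabp5 fell in COM by 1.76 on the log2 scale (SE 0.28, limma adjusted p = 0.000249), COM+Met was above COM by 1.55 (SE 0.28), and COM+Met against NC gave -0.22 (SE 0.18, limma adjusted p = 0.277), which was 0.07 with median-of-ratios scaling. COM-6 was the lowest at 80.1 FPKM, and without it COM+Met was above COM by 1.28. Of the 50-base stretches in Fabp5 transcripts, 5.48% also occur in 5 other annotated genes, among them Fabp5l2, so a part of its reads could have been split between them.

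Fabp4, the adipocyte type, was far lower per length, with 9.35 to 30.7 FPKM in NC (median 11.6), 0.846 to 5.21 in COM (median 2.49) and 2.58 to 6.07 in COM+Met (median 5.5). It fell in COM by 2.23 (SE 0.40, limma adjusted p = 0.000546). The difference was -3.01 without COM-4 to COM-6, -1.46 without COM-1 to COM-3 and -1.80 without NC-5 and NC-6, and it passed each time. COM+Met remained below NC by -1.40 (SE 0.29, limma adjusted p = 0.000625), with no overlap. Whether Fabp4 differed between COM+Met and COM depended on which COM samples were used: the difference was 0.83 (SE 0.34) with all of them, 1.61 without COM-4 to COM-6 and 0.06 without COM-1 to COM-3. COM-1 to COM-3 had 0.846 to 1.02 FPKM, and COM-4 to COM-6 had 3.96 to 5.21. The ratio of Fabp5 to Fabp4 FPKM had a median of 53.4 in NC and 117 in COM+Met, with no overlap of the ranges (32.3 to 63 and 105 to 153), and spread from 20.2 to 309 in COM. So COM+Met samples had Fabp5 near the NC level beside a Fabp4 level that was lower than in any NC sample. Fabp4 is also a gene of fat cells. Lep and Adrb3 were listed at 0 in all samples, and Adipoq reached at most 0.0409 FPKM. Plin1 ran from 0.228 to 3.92 FPKM in NC and reached at most 0.0321 in COM and 0 in COM+Met. Cidec reached at most 0.599, 0.0258 and 0 FPKM in that order of groups. Retn and Cfd went the other way in COM, reaching 0.369 and 0.174 FPKM against 0.163 and 0 in NC. What part fat cells had in the Fabp4 level was not tested. Of the 8 adipocyte markers, which summed to 7.96 to 11 FPKM in NC, 5.78 to 12.8 in COM and 6.74 to 7.93 in COM+Met, Lipe made up most.

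Plin2, the droplet coat protein perilipin 2 (chr4:86648386-86670060, minus strand), fell in COM and stayed there in COM+Met. It had 231 to 522 FPKM in NC (median 258), 59.5 to 112 in COM (median 84.6) and 67.9 to 82.4 in COM+Met (median 77.6). The highest crystal sample lay below the lowest NC sample. The difference was -1.93 for COM against NC (SE 0.24, limma adjusted p = 2.89e-05), -0.12 for COM+Met against COM (SE 0.13) and -2.05 for COM+Met against NC (SE 0.20, limma adjusted p = 1.1e-06). The NC samples fell in 2 tiers, with NC-5 and NC-6 at 513 to 522 FPKM and the other 4 at 231 to 259, and the fall in COM was -1.58 without NC-5 and NC-6 (limma adjusted p = 2.15e-05). Transcripts of Plin2 share 2.57% of their 50-base stretches with Gm12551.

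Cd36, the scavenger receptor for oxidised LDL and long-chain fatty acids (chr5:17781690-17888801, minus strand), stepped down in order from NC to COM to COM+Met. Its FPKM was 121 to 260 in NC (median 132), 38.2 to 109 in COM (median 79.2) and 20.6 to 28.1 in COM+Met (median 25.6). No sample of a group reached into another group. The COM samples again came in 2 sets, with COM-1 to COM-3 at 101 to 109 FPKM, just under the NC range, and COM-4 to COM-6 at 38.2 to 57.7. The fall in COM was -1.24 (SE 0.32, limma adjusted p = 0.00646), and without COM-4 to COM-6 it was -0.62 and did not pass (limma adjusted p = 0.0797). COM+Met was below COM by -1.41 (SE 0.27), by -0.79 without COM-1 to COM-3 and by -2.03 without COM-4 to COM-6. Against NC the fall in COM+Met was -2.65 (SE 0.20, limma adjusted p = 7.26e-08), the NC mean of 171 ± 66.1 FPKM (SD, n = 6) being 6.81-fold the COM+Met mean of 25.1 ± 2.9. Neutrophil and stromal marker sums fell in the same order over the 3 groups. Endothelial markers, of which Vwf was the highest, summed to 33.3 to 61.9 FPKM in NC, 14 to 19.2 in COM and 13.6 to 18.5 in COM+Met. Not all of these markers fell. Kdr, an endothelial marker, ran from 0.166 to 0.862 FPKM in NC, 1.64 to 10.3 in COM and 4.53 to 7.16 in COM+Met. Pdgfrb, a stromal marker, ran from 0.482 to 1.5, 2.25 to 7.04 and 2.26 to 4.11 FPKM. What part neutrophils, stromal and endothelial cells had in the levels of Cd36, Lpl, Plin2 and Fabp4 was not tested. Within NC, NC-5 and NC-6 had the higher Cd36, with a neutrophil sum of 541 to 561 FPKM against 897 to 1037 in the other 4, and an endothelial sum of 55.8 to 61.9 against 33.3 to 44.4. Within COM, COM-1 to COM-3 had the higher Cd36, with a neutrophil sum of 584 to 622 FPKM against 194 to 251 in COM-4 to COM-6, and an endothelial sum of 17.2 to 18.9 against 14 to 19.2.

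**Figure D2:**
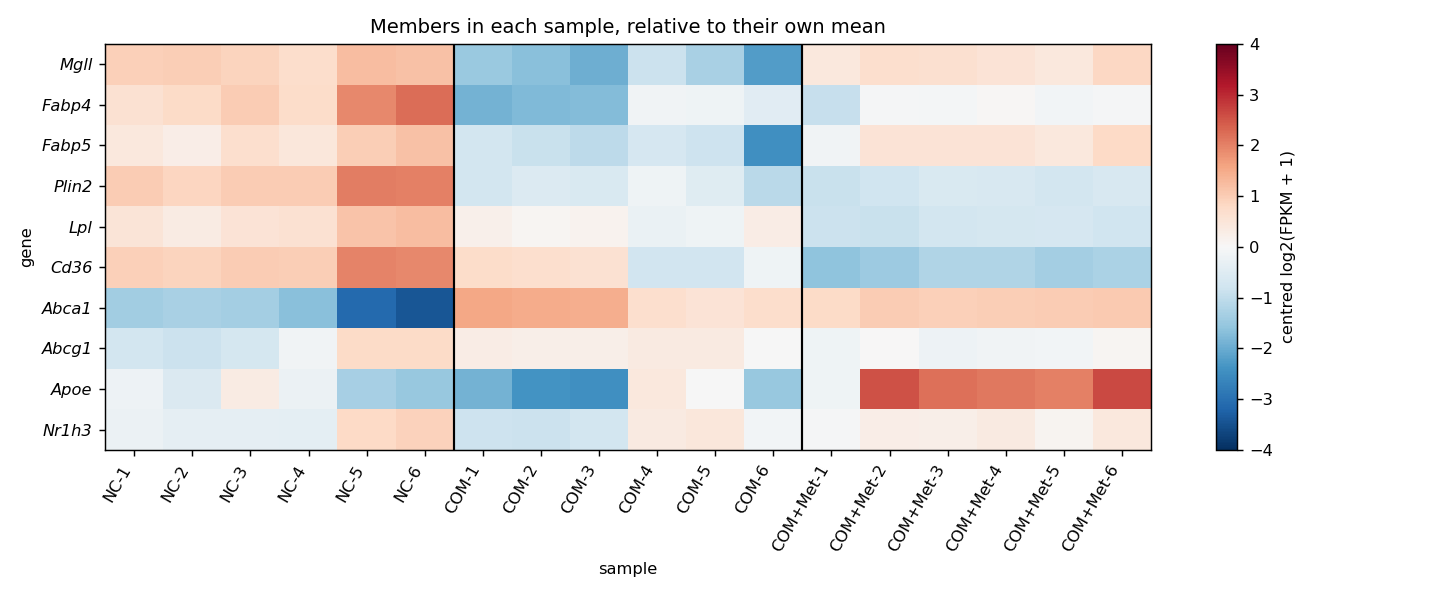
Log2(FPKM + 1) of the 10 genes in each of the 18 samples, minus the gene's own mean over the 18, with red above and blue below that mean and black lines between NC, COM and COM+Met. NC-5 and NC-6 are the reddest of NC for Fabp4, Plin2 and Cd36 and the bluest for Abca1, and COM-1 to COM-3 differ from COM-4 to COM-6 in Fabp4, Cd36, Apoe and Nr1h3.

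The efflux genes did not move together. Abca1 (chr4:53030787-53159895, minus strand) had the largest rise of the 10 in COM. It measured 2 to 12 FPKM in NC (median 10.2), 46.2 to 92.6 in COM (median 69.7) and 53.5 to 65.8 in COM+Met (median 63.2). Every sample of COM and COM+Met had more Abca1 than every NC sample. The COM mean of 69.4 ± 22 FPKM (SD, n = 6) was 8.55-fold the NC mean of 8.12 ± 4.58, a difference of 3.11 on the log2 scale (SE 0.39, limma adjusted p = 3.6e-05), and COM+Met exceeded NC by 3.01 (SE 0.35, limma adjusted p = 5.41e-06). COM+Met against COM gave -0.10 (SE 0.18), which was 0.32 without COM-1 to COM-3 and -0.53 without COM-4 to COM-6. NC-5 and NC-6 were the low NC samples at 2 to 2.7 FPKM, and without them the rise in COM was 2.50 (limma adjusted p = 1.05e-05).

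Abcg1 (chr17:31057675-31117988, plus strand), the partner of Abca1 in cholesterol export, did not pass in COM. It had 31.2 to 97.3 FPKM in NC (median 42.9), 55.8 to 72.9 in COM (median 69.1) and 49.1 to 59.4 in COM+Met (median 52.3). The NC range enclosed both others, because NC-5 and NC-6 had 96.4 to 97.3 FPKM and the other 4 had 31.2 to 51.1. The difference of COM from NC was 0.40 (SE 0.28, limma adjusted p = 0.25), and without NC-5 and NC-6 it was 0.85 and passed (limma adjusted p = 0.00101). COM+Met was below COM by -0.33 (SE 0.09) with overlapping ranges, and differed from NC by 0.06 (SE 0.28, limma adjusted p = 0.848), or by 0.52 without NC-5 and NC-6 (limma adjusted p = 0.00112). The mean FPKM itself was lower in COM+Met (53.4) than in NC (57.4), opposite in sign to the mean on the log2 scale. The ratio of Abca1 to Abcg1 FPKM had a median of 0.255 in NC (range 0.0206 to 0.386), 1.11 in COM (0.634 to 1.32) and 1.16 in COM+Met (1.06 to 1.25), so that NC did not overlap the other groups.

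Apoe (chr7:19696109-19699188, minus strand) had the widest log2 spread of the 10 within COM and within COM+Met, though not within NC. It had 30.2 to 109 FPKM in NC (median 66.7), 15.1 to 119 in COM (median 26.4) and 78 to 558 in COM+Met (median 397). Of the COM+Met samples, 5 had 360 FPKM or more, above all NC and COM samples, while COM+Met-1 had 78. COM against NC gave -0.72 (SE 0.52, limma adjusted p = 0.254), which was -1.66 and passed without COM-4 to COM-6 (limma adjusted p = 0.0054) and was 0.22 without COM-1 to COM-3 (limma adjusted p = 0.713). COM+Met was above COM by 3.20 (SE 0.59), and the difference was 3.61 without COM+Met-1, 4.14 without COM-4 to COM-6 and 2.26 without COM-1 to COM-3. It was above NC by 2.48 (SE 0.46, limma adjusted p = 0.000289). Per length, Apoe took place 5 of the 10 in NC, 7 in COM and 2 in COM+Met.

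Nr1h3 (chr2:91184061-91202834, minus strand), which encodes LXRα, did not pass in either comparison with NC. It had 12 to 31.7 FPKM in NC (median 12.9), 8.35 to 22.4 in COM (median 12) and 15.6 to 22 in COM+Met (median 19.4). All groups overlapped. The difference was -0.35 for COM against NC (SE 0.32, limma adjusted p = 0.367), 0.52 for COM+Met against COM (SE 0.23) and 0.17 for COM+Met against NC (SE 0.24, limma adjusted p = 0.538). These values rested on the samples that stood apart. NC-5 and NC-6 had 28.4 to 31.7 FPKM against 12 to 13.5 in the other 4, and without them COM+Met was above NC by 0.57 (limma adjusted p = 3.93e-05). COM-1 to COM-3 had 8.35 to 9.29 FPKM against 14.7 to 22.4 in COM-4 to COM-6. COM against NC was -0.87 without COM-4 to COM-6 (limma adjusted p = 0.0476), 0.17 without COM-1 to COM-3 (limma adjusted p = 0.683) and 0.05 without NC-5 and NC-6 (limma adjusted p = 0.894). COM+Met against COM was 1.04 without COM-4 to COM-6 and -0.00 without COM-1 to COM-3.

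**Figure D3:**
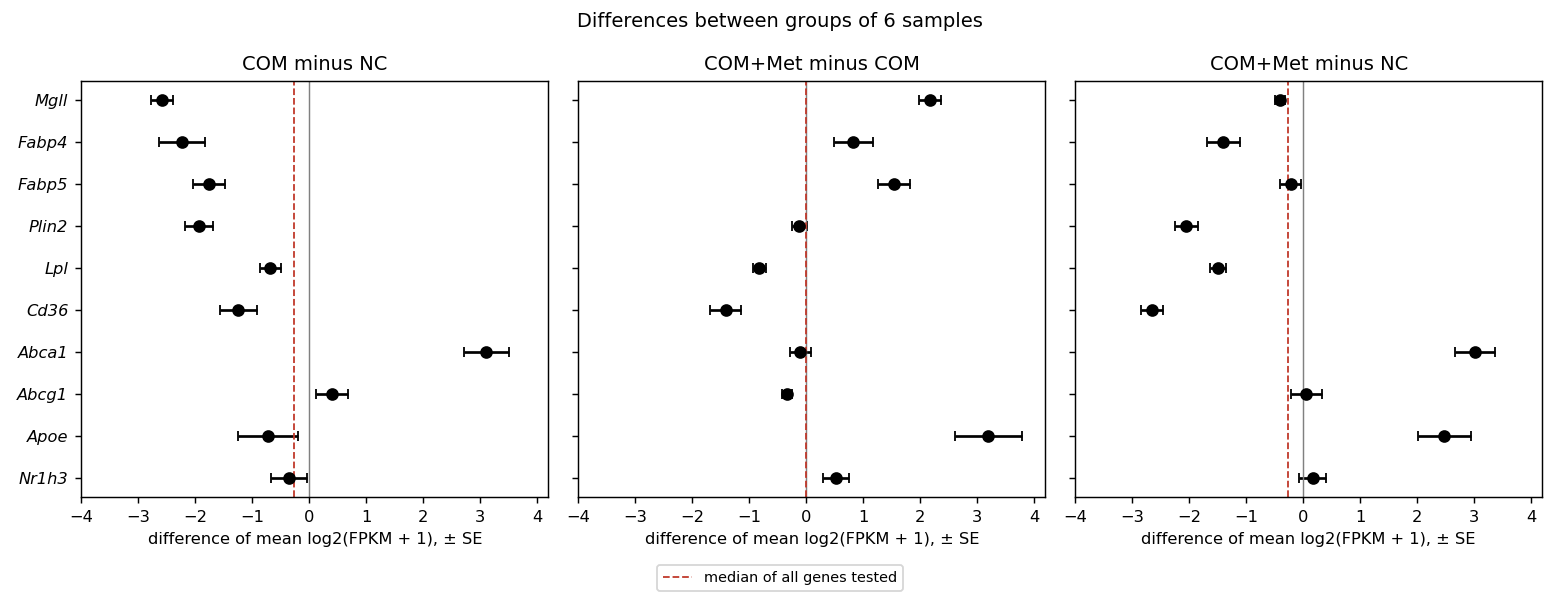
Differences of mean log2(FPKM + 1) between groups of 6 samples for the 10 genes, with bars of ± 1 SE, a grey line at 0 and a dashed line at the median of all genes tested (-0.27, 0.00 and -0.26). Mgll and Fabp5 are far below 0 in COM minus NC and far above 0 in COM+Met minus COM, Abca1 is near 3 in both comparisons with NC, and Lpl and Cd36 are below 0 in all 3 panels.

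Against NC, COM+Met had 2 of the 10 genes higher (Abca1 and Apoe), 5 lower (Mgll, Fabp4, Plin2, Lpl and Cd36) and 3 that did not pass. Over all genes 19.3% passed as higher and 55.9% as lower, and the groups did not overlap for 57.6%, against 5 of the 10. These shares are near the background. The median of the 10 was -0.31, beside -0.26 over all 10786 genes tested.

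RefSeq promoter sequence (GRCm38.p6) was found for 6 of the 10 genes, and the 250 bases before the start were searched on both strands. Fabp4, Fabp5, Lpl and Abcg1 had no entry. The search used TATAAA, the GC box GGGCGG, the E-box CACGTG, and pairs of NGGTNA in tandem 4 bases apart, the spacing known for LXR, or 1 base apart, the spacing known for PPAR. These motifs occur in 12.4%, 32.7%, 6.02%, 0.621% and 0.935% of 32851 mouse promoter windows. Abca1, which rose most in COM, held the LXR-type pair on the minus strand, 67 to 52 bases before the start. It also held a TATA box at 29 to 24, an E-box at 147 to 142 and GC boxes at 163 to 158 and 97 to 92. The first of 2 Mgll windows, shown because Mgll fell most in COM, held an E-box at 44 to 39 bases, and the second held a GC box on the minus strand at 121 to 116. The Cd36 window, shown because Cd36 fell most in COM+Met, held GC boxes at 109 to 104 and 93 to 88, and none of the other letters. It lies inside the Cd36 gene (chr5:17781690-17888801), so it precedes an internal start and not the outermost one. The Plin2 and Nr1h3 windows held no match, of the 3 Apoe windows 1 held TATAAA, and no window held the PPAR-type pair. In the sequences, 5′ to 3′ on the gene's strand and ending at the base before the start, capitals mark those matches. They describe letters only and say nothing of binding. The windows are chr4:53159896-53160145 (minus strand), chr6:88724162-88724411 (plus strand) and chr5:17835897-17836146 (minus strand).
Abca1: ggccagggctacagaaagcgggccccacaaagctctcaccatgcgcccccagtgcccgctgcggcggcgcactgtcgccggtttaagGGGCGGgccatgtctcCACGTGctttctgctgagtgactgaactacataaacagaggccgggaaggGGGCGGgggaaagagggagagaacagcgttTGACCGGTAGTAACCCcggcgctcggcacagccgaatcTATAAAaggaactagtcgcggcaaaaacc
Mgll: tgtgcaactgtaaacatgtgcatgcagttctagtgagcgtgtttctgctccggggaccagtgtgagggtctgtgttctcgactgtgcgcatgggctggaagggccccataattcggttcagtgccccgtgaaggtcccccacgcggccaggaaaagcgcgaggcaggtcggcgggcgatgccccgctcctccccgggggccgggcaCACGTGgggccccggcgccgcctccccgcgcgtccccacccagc
Cd36: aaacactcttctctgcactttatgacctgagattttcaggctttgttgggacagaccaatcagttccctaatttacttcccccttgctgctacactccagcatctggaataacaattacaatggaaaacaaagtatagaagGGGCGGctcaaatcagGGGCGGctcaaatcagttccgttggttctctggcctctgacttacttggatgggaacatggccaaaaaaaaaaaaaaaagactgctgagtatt

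Per length, the order of mean levels in NC was Lpl (721 FPKM), Fabp5 (715), Plin2 (339), Cd36 (171), Apoe (63.9), Abcg1 (57.4), Mgll (38.1), Nr1h3 (18.4), Fabp4 (16.3) and Abca1 (8.12). Neighbours in that order overlapped except Fabp5 and Plin2, and Cd36 and Apoe. In COM, Abca1 had moved from last to place 5 (69.4 FPKM) and Mgll to place 9 (5.82), and Lpl was the only gene whose range lay clear of the next. In COM+Met, Fabp5 (612 FPKM) and Apoe (384) led Lpl (247), with overlapping neighbours, and Plin2 (76.3) lay below Lpl with no overlap.

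The genes closest in course were sought as those with the smallest root mean square difference of log2(FPKM + 1), each centred on its own mean, over 18 samples and 10751 genes. For Mgll these were Fabp5 (0.45), Itgb3 (0.46) and Gdf15 (0.53), beside a root mean square of 1.17 for Mgll itself. For Fabp5 they were Itgb3 (0.33), C77080 (0.34) and Dpp7 (0.36). Itgb3, the integrin β3 subunit, averaged 10.8 FPKM in NC, 2.33 in COM and 7.41 in COM+Met. For Plin2 they were Gtse1 (0.17), Mcm5 (0.19) and Slc12a7 (0.20), of which Gtse1 and Mcm5 are known from the cell cycle. Apoe lay nearest to the complement genes C1qb (0.88) and C1qc (0.91) and to Ly86 (0.95), and Cd36 to Rnase4 (0.26), Megf9 (0.26) and Il16 (0.29). Lpl was closest to Mtfr2 (0.18), Rassf5 (0.18) and Lrrfip1 (0.21), Nr1h3 to Por (0.22), Focad (0.24) and Ncoa4 (0.27), and Fabp4 to Dhrs3 (0.41), Ulbp1 (0.48) and Eps8 (0.52). Abca1 was closest to Mefv (0.28) and Clmp (0.29), and Abcg1 to Sla (0.27) and Cdca7l (0.28), each also to 1 gene model without a name. The root mean square of the gene itself was 0.90 for Fabp5, 1.00 for Plin2, 1.66 for Apoe, 1.18 for Cd36 and 0.66 for Lpl. It was 0.51 for Nr1h3, 1.10 for Fabp4, 1.55 for Abca1 and 0.44 for Abcg1. The same distance therefore does not mean the same closeness for each gene. The 18 samples share their groups, and these distances are descriptions. Mgll and Fabp5 were both first seen for their rise from COM to COM+Met, which by itself favours a small distance between them.

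Around the 10 genes, 145 other genes of lipid metabolism were read in 8 lists, of which 41 had a mean under 1 FPKM over the 18 samples. In COM against NC, 103 were tested, 13 rose and 48 fell, beside 12.7% and 40.6% over all genes, with a median of -0.49 beside -0.27. With median-of-ratios scaling, 23 rose and 38 fell. Of 22 genes of beta-oxidation, the stepwise splitting of fatty acids, 16 fell and 0 rose by limma, and 0 were higher at an unadjusted p under 0.05. With median-of-ratios scaling 12 fell and 1 rose. Etfb, an electron carrier of beta-oxidation, went from 82.8 ± 24.6 FPKM in NC to 18.5 ± 8.03 in COM (SD, n = 6, limma adjusted p = 0.000181). The thiolase genes Acat1 and Acaa2 fell by 1.65 and 1.55 on the log2 scale (limma adjusted p = 3.71e-05 and 0.000403).

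Of the PPAR receptors and targets outside the 10, 11 were tested, 8 fell and 1 rose, beside 40.6% and 12.7% over all genes. Pparg, which encodes PPARγ, went from 12.9 ± 6.7 FPKM in NC to 0.651 ± 0.44 in COM and 0.326 ± 0.108 in COM+Met (SD, n = 6) (limma adjusted p = 2.97e-06 for COM against NC). Its lowest NC sample, at 7.57 FPKM, lay far above its highest COM sample, at 1.07. Angptl4, a secreted inhibitor of Lpl, fell from 6.59 ± 5.33 to 0.746 ± 0.519 FPKM (limma adjusted p = 0.0011), and Ucp2, a mitochondrial carrier, fell by 1.50 (limma adjusted p = 0.000668). Acsl1, which activates long-chain fatty acids, rose instead, from 81.8 ± 41.3 to 588 ± 27.7 FPKM (difference 2.98, SE 0.28, limma adjusted p = 2.97e-06), and had 579 ± 27 FPKM in COM+Met.

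Of 19 LXR receptors and targets tested outside the 10, 6 fell and 1 rose in COM, beside 40.6% and 12.7% over all genes. Neither share was above that over all genes. Their median was -0.63, which was 0.03 without COM-4 to COM-6. The riser was Mylip, a ubiquitin ligase, from 10.8 ± 3.44 to 25.3 ± 1.33 FPKM (SD, n = 6, limma adjusted p = 7.18e-05). Fads2, which desaturates fatty acids, fell by 1.71 on the log2 scale, and Lpcat3, which remodels phospholipids, fell by 1.43. With median-of-ratios scaling the count was 3 up and 4 down.

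Among the binding proteins, Fabp3, the heart type, took the opposite course to Fabp4 and Fabp5 in COM. It rose from 4.28 ± 1.52 FPKM in NC to 40 ± 15 in COM (SD, n = 6, difference 2.92, SE 0.25, limma adjusted p = 1.56e-06) and again to 85.3 ± 11.9 in COM+Met (difference from COM 1.15, SE 0.21, limma adjusted p = 0.00449). No sample of a group overlapped another group. Fabp7 fell from 3.42 ± 1.02 to 1.09 ± 0.378 FPKM in COM (limma adjusted p = 0.000245), and the other 9 family members listed were under 1 FPKM. Among the droplet and triglyceride genes, Dgat2, which makes triglyceride, rose from 2.39 ± 0.53 to 23 ± 5.15 FPKM in COM (limma adjusted p = 8.23e-08). In COM+Met it was 10.5 ± 1.81 FPKM, below COM by -1.04 (SE 0.17, limma adjusted p = 0.00187) with overlapping ranges. Lpin1, an earlier enzyme of the same route, fell from 9.87 ± 2.22 to 1.51 ± 0.706 in COM (limma adjusted p = 2.61e-06). The droplet coat gene Plin3 fell by 0.84 (limma adjusted p = 0.0154), a call lost without NC-5 and NC-6 (-0.73, limma adjusted p = 0.0759).

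Of 14 genes of lipases and monoacylglycerol turnover, 9 fell and 2 rose in COM (6 and 4 with median-of-ratios scaling). Over all genes, 40.6% fell and 12.7% rose. Daglb, which makes the 2-arachidonoylglycerol that Mgll splits, fell from 8.64 ± 2.33 FPKM in NC to 1.95 ± 0.369 in COM and was 3.61 ± 0.474 in COM+Met (SD, n = 6). The fall was 1.69 on the log2 scale (SE 0.15, limma adjusted p = 1.87e-06), the rise from COM to COM+Met 0.65 (SE 0.10, limma adjusted p = 0.00163), and COM+Met stayed below NC by -1.04 (SE 0.13, limma adjusted p = 1.3e-05). The groups did not overlap. Cnr2, the cannabinoid receptor of immune cells, fell by 1.64 in COM (limma adjusted p = 0.00014) and measured 19.7 ± 7.21 FPKM in NC, 5.53 ± 1.91 in COM and 3.83 ± 0.402 in COM+Met. Naaa, which splits N-acylethanolamines, fell from 133 ± 18.3 to 21.3 ± 12.1 FPKM (limma adjusted p = 2.54e-05). Pla2g7, the lipoprotein-associated phospholipase, rose from 363 ± 234 to 1070 ± 187 FPKM (limma adjusted p = 0.00811), a call lost without COM-1 to COM-3 (limma adjusted p = 0.0642).

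Genes of lipid uptake receptors and fatty acid activation, read as 1 list, were divided. Of 15 tested, 5 rose and 4 fell in COM, beside 12.7% and 40.6% over all genes. The risers include Acsl1, which is not a receptor and was also counted among the PPAR targets. Cxcl16, a scavenger receptor for oxidised lipoprotein, rose by 2.57 (limma adjusted p = 0.00141) and Stab1 by 2.13 (limma adjusted p = 0.000132). Scarb1, which takes up HDL cholesterol, fell by 1.64 (limma adjusted p = 0.0044), and Lrp1, which takes up remnant particles, fell by 0.98 (limma adjusted p = 0.00231). Of 19 genes of cholesterol trafficking, 3 rose and 8 fell (4 and 6 with median-of-ratios scaling), shares near the 12.7% and 40.6% over all genes. Npc2, the lysosomal cholesterol carrier, rose from 166 ± 9.85 to 360 ± 91.3 FPKM (limma adjusted p = 8.12e-05), and Cav1 and Gramd1b also rose. Stard4, a cytosolic sterol carrier, fell from 31.5 ± 3.74 to 4.6 ± 2.88 FPKM (limma adjusted p = 1.52e-05), and Cyp27a1, which makes 27-hydroxycholesterol, fell by 1.73 (limma adjusted p = 8.82e-05).

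**Figure D4:**
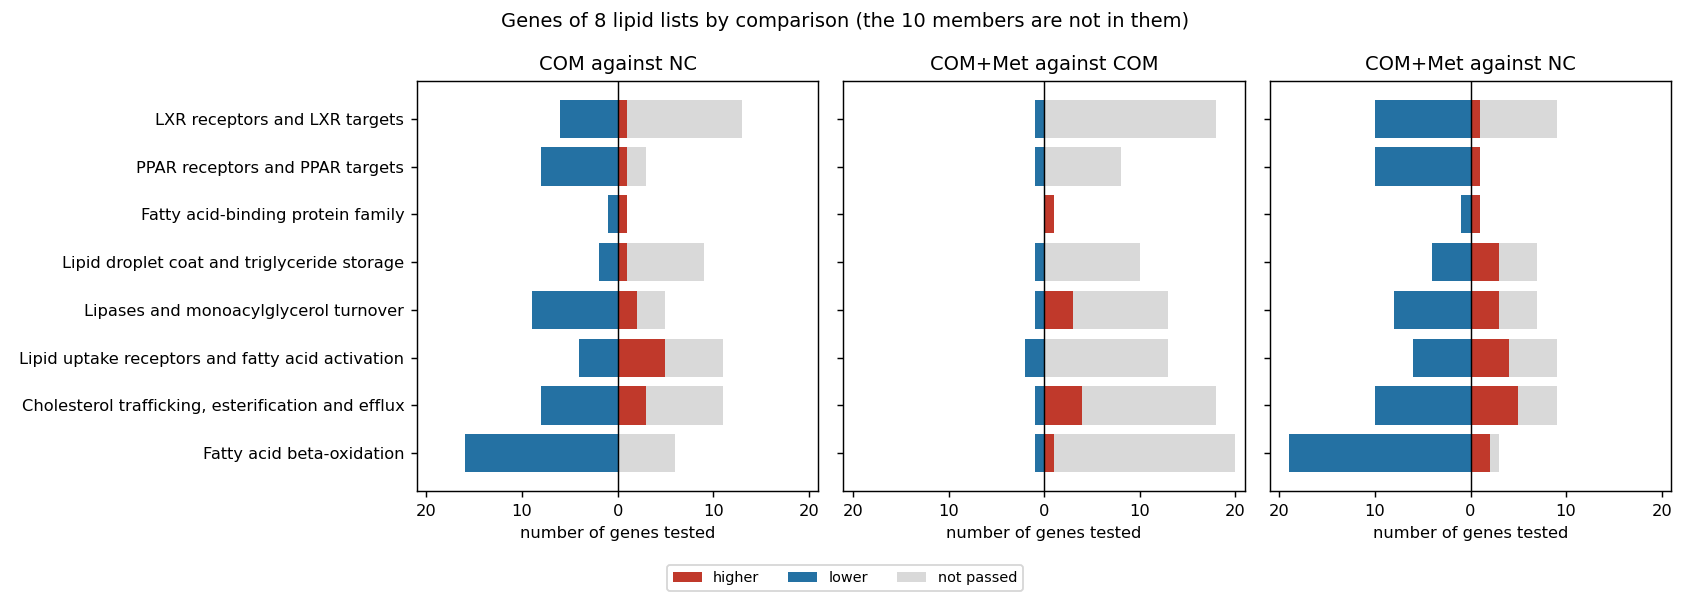
Numbers of tested genes in 8 lipid lists that were higher (red) or lower (blue) at an adjusted p under 0.05, or did not pass (grey), in the 3 comparisons of 6 against 6 samples, the first-named group relative to the second. Beta-oxidation has 16 lower genes of 22 in COM against NC and 19 of 22 in COM+Met against NC, and most genes of every list except the binding proteins are grey in COM+Met against COM.

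With Met, 99 of the 145 genes were tested against COM, with a median of -0.00. Of these, 9 rose and 7 fell, beside 5.77% and 7.58% over all genes. These counts hold the full COM group, and they were 17 up and 56 down without COM-4 to COM-6 and 25 up and 8 down without COM-1 to COM-3, so neither the number nor the balance was stable. Besides Fabp3 and Daglb, the risers included Decr1, a beta-oxidation reductase, from 1.69 ± 0.653 to 4.08 ± 0.457 FPKM (SD, n = 6, limma adjusted p = 0.00159), and Nceh1, a cholesteryl ester hydrolase, from 24.1 ± 3.85 to 33.3 ± 1.8 (limma adjusted p = 0.0109). Pla2g15, the lysosomal phospholipase, rose by 0.57 (limma adjusted p = 0.0201), a call lost without COM-1 to COM-3 (0.46, limma adjusted p = 0.0947). Olr1 and Msr1, receptors for oxidised LDL like Cd36, fell by 1.33 and 0.40 (limma adjusted p = 0.0121 and 0.029). Olr1 went from 66.9 ± 33.1 to 23.2 ± 3.35 FPKM. Msr1 did not pass with median-of-ratios scaling (limma adjusted p = 0.103). Ch25h, which makes the LXR ligand 25-hydroxycholesterol, fell from 37.6 ± 20.8 to 17.2 ± 1.79 FPKM (limma adjusted p = 0.0413), a call also lost with median-of-ratios scaling (0.0586 as the limma adjusted p). Mylip fell from 25.3 ± 1.33 to 18.1 ± 0.388 FPKM (limma adjusted p = 0.00063), Cpt1a by 0.31 (limma adjusted p = 0.0139) and Pla2g7 by 0.54 (limma adjusted p = 0.0115). With all 18 samples in the same fit, Msr1, Ch25h, Cpt1a, Pla2g7 and Pla2g15 did not pass. Of the 19 other LXR receptors and targets, 0 rose and 1 fell by limma. At an unadjusted p under 0.05, 2 were higher and 3 lower.

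Against NC, 104 of the 145 were tested in COM+Met, of which 19 rose and 60 fell (30 and 50 with median-of-ratios scaling), with a median of -0.45, shares near the 19.3% and 55.9% over all genes. Of 22 beta-oxidation genes, 19 fell and 2 rose. Of 11 PPAR receptors and targets, 10 fell and 1 rose. Stard4 fell to 3.44 ± 0.202 FPKM (SD, n = 6, limma adjusted p = 5.65e-12) and Scd1, the stearoyl-CoA desaturase, from 11.2 ± 1.81 to 1.17 ± 0.113 FPKM (limma adjusted p = 1.1e-10). Abcg4, a transporter related to Abcg1, fell from 12 ± 6.44 to 0.458 ± 0.0498 FPKM (limma adjusted p = 4.7e-06). Npc2 rose to 510 ± 16.4 FPKM (limma adjusted p = 1.74e-11), and Stard3, which moves sterol out of late endosomes, from 21.6 ± 1.03 to 42 ± 2.68 (limma adjusted p = 2.92e-09).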

How the data were processed

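RNA-seq of BMDMs over TECs comprised 18 samples in 3 groups of 6 (NC, COM and COM+Met), taken from the sample titles. The authors deposited FPKM values for each sample separately, and 0 columns were left out. Bowtie 0.12.2, mm8 and mm9 appear in the submitters' processing notes, with no role stated. The quantifier is not given in the sources used here. Without read depth, counting intervals and detection limits cannot be had. Because FPKM is scaled to each sample's total, a gene falls when abundant genes rise. Positions came from GENCODE M21 (GRCm38) by Ensembl identifier, which 3890 of 25926 genes lack.

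The analysis was run on log2(FPKM + 1) with limma 3.58.1 (lmFit, then eBayes with trend) under R 4.3.3. Each comparison used its own 12 samples and the genes averaging 1 FPKM or more in them. P-values were adjusted by Benjamini-Hochberg over all genes tested, and a gene passed under 0.05. The procedure was tested on simulated data. Python 3.11.15 with pandas 2.3.3 and numpy 2.4.6 made the tables, and matplotlib 3.10.9 the plots. The 10 genes, the 8 lists and the tests were chosen with earlier results of these data known. Named were all 10 genes, the 3 genes closest to each, and per list and comparison up to 3 rises and 3 falls with the largest change among genes that passed and whose groups did not overlap. Some genes that this rule names are not reported here. Alternatives were pseudocounts of 0.1 and 5, no filter, a filter of 5 FPKM, median-of-ratios size factors, TPM (rescaling to the same sum), quantile normalisation, a replicate block, all 18 samples in the same fit, sample weights, and samples left out.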

Additional observations from a re-analysis of the deposited data

Results flagged for a closer look

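Of 30 groups of 6 values (10 genes in 3 groups), 5 held a sample far from the rest by Dixon's ratio of gap to range at the 95% level. Chance alone flags about 1 in 20 groups, so a part of these may be chance. COM+Met-1 was the lowest of its group for Fabp4 (2.58 FPKM, ratio 0.818), Abca1 (53.5 FPKM, ratio 0.659) and Apoe (78 FPKM, ratio 0.777). COM-6 was the lowest of COM for Fabp5 (80.1 FPKM, ratio 0.794) and Abcg1 (55.8 FPKM, ratio 0.708).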

How the results depend on the processing

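Over pseudocounts, filters, scalings and fits, no result changed direction among those that had passed. The counts for COM+Met against COM were the least stable: 1384 genes and 16 of the listed lipid genes passed in the full fit, 744 and 7 with a replicate block, 6680 and 73 with sample weights, 6349 and 73 without COM-4 to COM-6, and 2439 and 33 without COM-1 to COM-3. Leaving out each sample in turn gave 943 to 2753 genes (the highest without COM-6, the lowest without COM+Met-3) and 10 to 34 listed genes (the lowest without COM+Met-2, the highest without COM-6). Why these counts moved was not tested. With median-of-ratios size factors 48.3% of the genes that passed in COM against NC were higher, beside 23.8% in the full fit, and 49% beside 25.6% in COM+Met against NC. For listed lipid genes the shares were 37.7% beside 21.3% and 37.5% beside 24.1%, and in COM+Met against COM 38.9% beside 56.2%. Abcg1 in COM+Met against COM no longer passed with the replicate block or with all 18 samples in the same fit, and the latter also lost Mgll in COM+Met against NC. Samples of the same number did not deviate together (r from -0.222 to 0.0569), and the numbers pair nothing in the labels. The depth behind the FPKM values is unknown, and Fabp4 in COM had the lowest of them.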
